A study of Mus musculus with 12 samples.

Results

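The mRNA levels of 10 dual-specificity phosphatases that act on mitogen-activated protein kinases (MAPK) were followed in 2 mouse testis cell lines after knockdown of M5. M5 is the muscarinic acetylcholine receptor encoded by Chrm5. The genes were Dusp1, Dusp2, Dusp4, Dusp5, Dusp6, Dusp7, Dusp8, Dusp10, Dusp14 and Dusp16, found by gene symbol among the 17995 genes of the expression table, and all 10 were there. The list was selected on earlier results from these same 12 libraries, and which of their values led to it is not recorded. All values of these genes, adjusted p-values and counts of calls included, are therefore given as a description and support no statement on the family as a whole. C18-4 cells are described as a spermatogonial stem cell line and TM4 cells as a Sertoli cell line, and the labels give the strain of both as IRC. In each line, 3 libraries came from cells treated with lentiviral short hairpin RNA against M5 (shM5) and 3 from cells given the control hairpin in the same kind of vector (shNC). Hairpins to 3 positions of the receptor mRNA were made for shM5. No source says whether the 3 libraries of a group came from separate cultures, so the p-values measure the spread between these libraries, which may be technical. The study asked how the loss of M5 acts on germ and Sertoli cells.

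The MAP kinases ERK, JNK and p38 are switched on when a threonine and a tyrosine in their activation loop are phosphorylated, and dual-specificity phosphatases switch them off by removing both phosphates. Many of the phosphatase genes are themselves turned on by the kinases that their products inactivate, so that their mRNA often follows kinase activity as a negative feedback. Dusp1, Dusp2, Dusp4 and Dusp5 encode inducible nuclear enzymes, of which DUSP5 is selective for ERK. DUSP6 and DUSP7 sit in the cytoplasm and are selective for ERK. DUSP8, DUSP10 and DUSP16 act mainly on JNK and p38. DUSP14 is a small atypical enzyme that lacks the kinase-binding domain of the others. Muscarinic receptors of the M5 kind couple to Gq and can activate ERK.

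Promoter sequence from RefSeq (GRCm38.p6, from 250 bases before to 50 bases after the transcription start) was at hand for 9 of the 10 genes. Stretches of Dusp8, Dusp1 and Dusp5 are shown because these promoters carry a whole CRE or CArG box, both named below. Through such elements cyclic AMP, calcium and ERK signals are known to reach genes of this kind. The stretch of Dusp16, also shown, holds only a shorter core that is found in 20.8% of all promoters. The promoter of Dusp2 holds this core too and is not shown. Capitals mark the cyclic AMP response element (CRE) TGACGTCA, its shorter core TGACG read on either strand, and the CArG box bound by serum response factor. Each is written 5′ to 3′ on the strand of the gene.
Dusp16, chr6:134792674-134792718, minus strand: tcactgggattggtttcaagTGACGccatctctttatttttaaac
Dusp8, chr7:142095320-142095411, minus strand: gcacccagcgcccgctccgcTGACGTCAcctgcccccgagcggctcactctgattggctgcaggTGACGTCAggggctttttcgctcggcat
Dusp1, chr17:26508588-26508683, minus strand: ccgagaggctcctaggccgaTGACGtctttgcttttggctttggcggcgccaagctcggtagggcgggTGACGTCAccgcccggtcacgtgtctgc
Dusp5, chr19:53529043-53529114, plus strand: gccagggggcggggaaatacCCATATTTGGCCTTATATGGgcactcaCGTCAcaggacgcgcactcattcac
The whole CRE was found in 2 of the 9 promoters, those of Dusp8 and Dusp1, and in 1.79% of 32851 promoters of the same length. Dusp8 held it at positions -107 and -63 from the start, and Dusp1 at position -143. The shorter core, which lies within the CRE, was found in 5 of the 9 promoters and in 20.8% of all promoters. Dusp16 held it at position -70. The CArG box was found in Dusp5 only, at positions -82 and -72, and in 1.63% of all promoters. The E-box CACGTG was found in Dusp1 and Dusp2 and in 7.15% of all promoters. The AP-1 element TGANTCA was in none of the 9 promoters and in 7.81% of all. These matches describe the letters of the sequence, and binding was not measured. The 9 promoters held 57.3% to 78.7% G and C, where the median of all promoters was 52.7%. The part of base composition in the matches was not tested.

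The values were read counts scaled by the authors for gene length and for the number of mapped reads (RPKM). Chrm5 itself was listed at 0.01 RPKM in C18-4 shNC replicate 2 and TM4 shNC replicate 1 and at 0 in the other libraries, so the knockdown could not be checked at the mRNA level. Library TM4 shNC replicate 3 stood apart from its group. It differed from the other shNC libraries by 0.64 and 0.642 (root mean square, log2 scale, over all genes fitted) and from the shM5 libraries by 0.202 to 0.257, so its values are named beside the TM4 results of the phosphatases, and the fits were repeated without it. C18-4 replicate 3 of shNC differed from the other shNC libraries by 0.438 and 0.418, and replicate 3 of shM5 from the other shM5 libraries by 0.388 and 0.376. The defining markers were largely missing from both lines. In C18-4 cells, 9 of 11 spermatogonial markers had a mean below 0.5 RPKM, with Gfra1 at 0.12 to 0.34 RPKM and Ddx4 at 0.05 RPKM or less. In TM4 cells, 5 of 12 Sertoli cell markers were below 0.5 RPKM, with Wt1 at 0.06 to 0.15 RPKM, while Wt1 was 53.9 to 72.3 RPKM in C18-4 cells. In libraries of whole cultures, fewer cells that express a gene and less RNA per cell cannot be told apart.

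The family was led by different genes in the 2 lines. RPKM is a level per length, so genes can be ordered by it. In C18-4 shNC cells, Dusp14 was highest at 67.1 ± 10.3 RPKM (mean ± SD, n = 3), followed by Dusp1 at 29.3 ± 9.5 RPKM. Dusp4, Dusp6 and Dusp5 came next at 14.3 ± 0.431, 13.97 ± 1.68 and 12 ± 0.583 RPKM, and the libraries of Dusp4 and Dusp6 overlapped. Dusp16 (9.45 ± 1.11 RPKM) and Dusp10 (8.52 ± 1.38 RPKM) also overlapped, and they were followed by Dusp8 (5.3 ± 1.14 RPKM) and Dusp7 (3.33 ± 0.239 RPKM). Dusp2, known mainly from blood cells, was lowest at 0.593 ± 0.0851 RPKM. In TM4 shNC cells the highest mean was that of Dusp6 at 29.9 ± 12 RPKM, and its libraries overlapped with those of Dusp14 (21.7 ± 1.64 RPKM). Dusp14, Dusp16 (20.5 ± 2.18 RPKM) and Dusp1 (20.3 ± 4.82 RPKM) overlapped from one to the next in turn. Below them stood Dusp7 (12.7 ± 1.15 RPKM), Dusp4 (11.6 ± 5.42 RPKM), Dusp5 (7.19 ± 5.38 RPKM), Dusp8 (6.45 ± 1.48 RPKM) and Dusp10 (3.6 ± 1.5 RPKM), each overlapping with the next. Dusp2 was listed at 0 in the 3 shNC libraries of TM4 cells. Over shNC replicates 1 and 2 alone, the means were 23.0 RPKM for Dusp6, 22.6 RPKM for Dusp14, 21.7 RPKM for Dusp16, 17.5 RPKM for Dusp1, 14.8 RPKM for Dusp4 and 12.1 RPKM for Dusp7. Dusp8 was then at 7.29 RPKM, Dusp5 at 4.08 RPKM and Dusp10 at 2.73 RPKM.

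**Figure D1:**
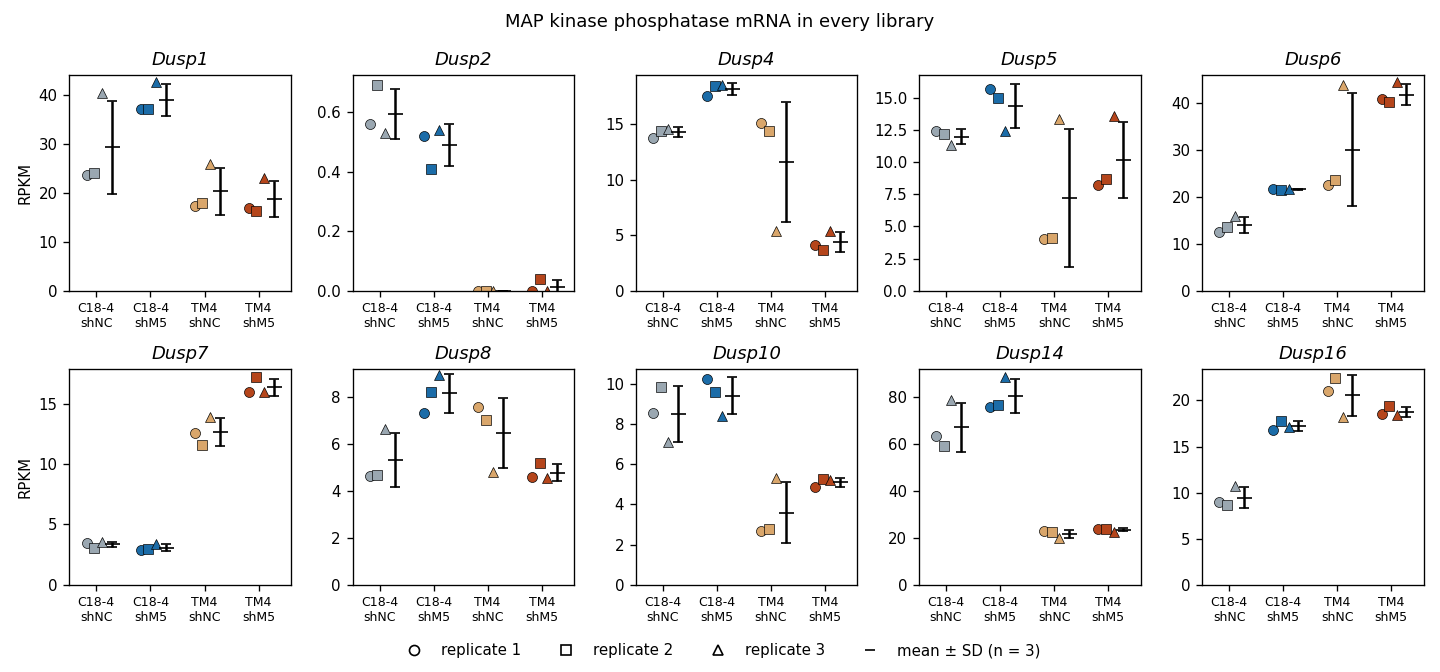
RPKM of each phosphatase gene (vertical axes, each starting at 0) in the 12 libraries, with the 4 groups on the horizontal axes. Circles, squares and triangles are replicates 1, 2 and 3, and bars are the mean ± SD (n = 3). In TM4 cells the shNC triangle lies near the shM5 points for Dusp4, Dusp6, Dusp8, Dusp10 and Dusp16, and all 3 shM5 points of Dusp16 in C18-4 cells (16.8 to 17.8 RPKM) lie above the shNC points (8.7 to 10.7 RPKM).

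In C18-4 cells the clearest difference was in Dusp16, a phosphatase of JNK and p38. Its level was 8.93, 8.7 and 10.7 RPKM in the shNC libraries and 16.8, 17.8 and 17.1 RPKM in the shM5 libraries. All shM5 libraries were above all shNC libraries, and the ratio of libraries with the same number was 1.88, 2.04 and 1.6. The log2 fold change was 0.86 ± 0.103 (SE), or 1.82-fold, with a limma adjusted p of 0.0367. It was the only member called at an adjusted p below 0.05. Among all 11611 genes tested, 0.293% were called higher and 0.293% were called lower. Over the 6 limma fits that left out a library, the log2 fold change was 0.81 to 0.96, with adjusted p from 0.00821 to 0.239. The call was lost when any of shNC replicates 1 and 2 or shM5 replicates 1, 2 and 3 was left out. It was also lost without a filter on low values, in a fit that called 4 of all 16230 genes. The fits without shNC replicate 1 or 2 or shM5 replicate 1 or 2 called 0 genes. That without shM5 replicate 3 called 31 of all 11592 genes. Over the 15 alternatives Dusp16 was called in 9, with adjusted p from 1.79e-05 to 0.239.

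Dusp8, which acts on the same kinases as Dusp16, was at 4.62, 4.66 and 6.61 RPKM in shNC and at 7.3, 8.19 and 8.92 RPKM in shM5 cells. The groups did not overlap, and the log2 fold change was 0.62 ± 0.164 (limma adjusted p = 0.183). Dusp10, the third phosphatase of JNK and p38, was at 8.59, 9.86 and 7.11 RPKM in shNC and at 10.3, 9.61 and 8.43 RPKM in shM5 cells, and the groups overlapped (log2 fold change 0.15 ± 0.143). The summed level of these 3 genes was 22.1, 23.2 and 24.4 RPKM in shNC and 34.3, 35.6 and 34.5 RPKM in shM5 libraries.

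Of the cytoplasmic ERK phosphatases, Dusp6 was at 12.5, 13.6 and 15.8 RPKM in shNC and at 21.7, 21.4 and 21.6 RPKM in shM5 cells. The shM5 libraries lay close together and above all shNC libraries, with a log2 fold change of 0.63 ± 0.1 that missed the threshold (limma adjusted p = 0.0544). With library medians set equal or with quantile normalization Dusp6 was called too, and over the 15 alternatives its adjusted p ran from 5.72e-05 to 0.322. Dusp7 had 3.44, 3.06 and 3.5 RPKM in shNC and 2.88, 2.95 and 3.39 RPKM in shM5 cells (log2 fold change -0.12 ± 0.129). Its groups overlapped, so that the close relatives Dusp6 and Dusp7 had log2 fold changes of opposite sign, although neither passed the test.

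Among the nuclear enzymes, Dusp4 was at 13.8, 14.4 and 14.6 RPKM in shNC and at 17.5, 18.4 and 18.5 RPKM in shM5 cells. The difference was small but nearly the same for each replicate number, at ratios of 1.27, 1.28 and 1.27 (log2 fold change 0.34 ± 0.0748, limma adjusted p = 0.125). Dusp1, the classical immediate early phosphatase, was at 23.7, 23.9 and 40.3 RPKM in shNC and at 37.1, 37.0 and 42.7 RPKM in shM5 cells. Here shNC replicate 3 lay among the shM5 libraries, and the ratio was 1.57 and 1.55 for numbers 1 and 2 but 1.06 for number 3. Fos and Egr1, transcripts that respond to the same signals, were also higher in replicate 3 of both groups. Fos was at 14.1 RPKM in shNC replicate 3 against 5.77 and 6.19 RPKM in replicates 1 and 2, and at 12.1 RPKM in shM5 replicate 3 against 8.74 and 8.4 RPKM. The part of replicate 3 in the Dusp1 result was not tested beyond leaving it out. Dusp5 was at 12.5, 12.2 and 11.4 RPKM in shNC and at 15.7, 15.0 and 12.5 RPKM in shM5 cells, with overlapping groups (log2 fold change 0.26 ± 0.11). Dusp2 stayed between 0.41 and 0.69 RPKM in all C18-4 libraries. Dusp14, the atypical member, was at 63.6, 59.05 and 78.7 RPKM in shNC and at 76.0, 76.8 and 88.8 RPKM in shM5 cells (log2 fold change 0.27 ± 0.121, limma adjusted p = 0.445). Its groups overlapped through shNC replicate 3.

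In C18-4 cells the libraries with the same replicate number deviated together and both libraries numbered 3 stood apart from the others, so a fit with the number as a block was set beside the one above. In it 6 members were called higher, Dusp1, Dusp4, Dusp6, Dusp8, Dusp14 and Dusp16, and 0 lower, where 5.21% of all genes were called higher and 6.73% lower. The limma adjusted p with the block was 0.00153 for Dusp16, 0.00329 for Dusp6, 0.00776 for Dusp8, 0.0115 for Dusp4, 0.0193 for Dusp14 and 0.0325 for Dusp1. Their log2 fold changes were those given above. For Dusp5 it was 0.0512. Over the 15 alternatives the adjusted p was 0.00058 to 0.601 for Dusp8, 0.00309 to 0.527 for Dusp4, 0.00124 to 0.817 for Dusp14, 2.37e-05 to 0.821 for Dusp1 and 0.00534 to 0.902 for Dusp5. In all, 8 of the 10 members had a log2 fold change above 0, with a median of 0.31, while the median of all genes was 0.00 and 5735 of 11611 were above 0. Groups did not overlap for 4 members, Dusp4, Dusp6, Dusp8 and Dusp16, all higher in shM5 cells, where 9.3% of all genes were higher and 9.55% lower without overlap.

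**Figure D2:**
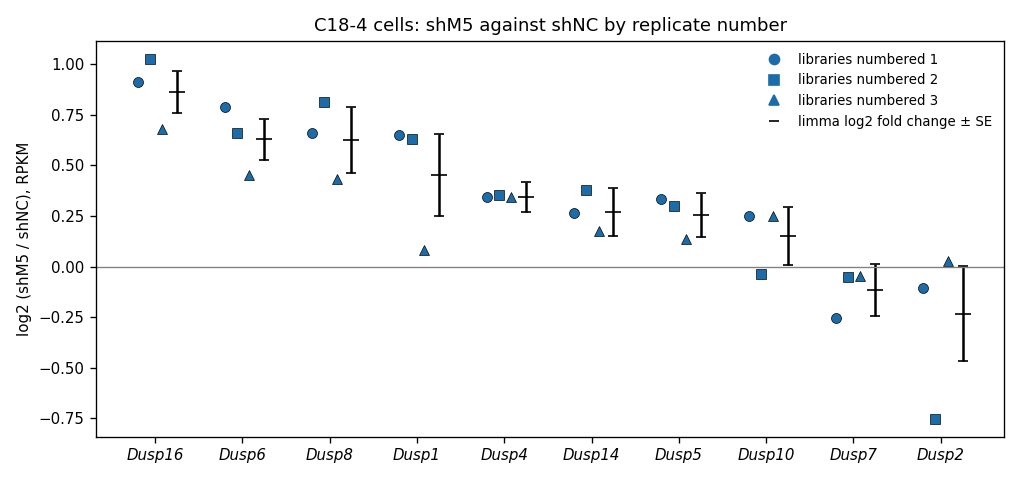
Ratio of shM5 to shNC in C18-4 cells (vertical axis, log2 of the RPKM ratio) for libraries of the same replicate number (circles, squares and triangles for numbers 1, 2 and 3), beside the limma log2 fold change ± SE, with genes ordered by it. Dusp16 leads with ratios of 1.6 to 2.04, and for Dusp1, Dusp5, Dusp6, Dusp8, Dusp14 and Dusp16 the triangle of number 3 is the lowest.

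In TM4 cells the phosphatases did not move one way. With all 6 libraries 0 of the 9 members tested were called by limma, where 0% of 11016 genes were called higher and 0% lower, while 2866 genes and 2 members had an unadjusted p below 0.05. Dusp2 did not reach the minimum mean of 0.5 RPKM. When shNC replicate 3 was left out, 7 members were called. Dusp5, Dusp6, Dusp7 and Dusp10 were higher and Dusp4, Dusp8 and Dusp16 lower in shM5 cells, where 36.5% of all genes were called higher and 30.9% lower. With each other library left out in turn, 0 members were called. Which of these fits describes the knockdown cannot be told from the 3 shNC libraries.

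Dusp4 had the largest log2 fold change of the 9 members in TM4 cells. It was at 15.1 and 14.4 RPKM in shNC replicates 1 and 2, at 5.4 RPKM in replicate 3 and at 4.16, 3.65 and 5.38 RPKM in shM5 libraries. The shM5 libraries were all below the shNC libraries, but shNC replicate 3 was only just above them. The log2 fold change was -1.26 ± 0.406 (limma adjusted p = 0.192), and it was -1.74 ± 0.147 without that library (adjusted p = 3.38e-05; 2.12e-07 to 0.507 over the 15 alternatives). Dusp5, the other nuclear phosphatase with a large spread, was at 4.05, 4.12 and 13.4 RPKM in shNC and at 8.24, 8.7 and 13.6 RPKM in shM5 cells. In both groups replicate 3 was the highest, and the log2 fold change was 0.69 ± 0.485 with all libraries. It was 1.26 ± 0.196 without shNC replicate 3, in a fit that kept the high shM5 replicate 3. Dusp1 showed the same high replicate 3, at 17.2, 17.8 and 25.9 RPKM in shNC and at 16.8, 16.3 and 23.0 RPKM in shM5 cells. Its log2 fold change was -0.11 ± 0.204 with all libraries and 0.08 ± 0.138 without shNC replicate 3, and neither passed the test. Fos had the same high replicate 3, with 2.13, 2.75 and 6.36 RPKM in shNC and 2.99, 2.69 and 6.25 RPKM in shM5 cells.

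Dusp6 was at 22.6, 23.5 and 43.8 RPKM in TM4 shNC cells and at 40.7, 40.1 and 44.3 RPKM in shM5 cells. Only shNC replicates 1 and 2 were lower, and the log2 fold change was 0.54 ± 0.254 with all libraries and 0.85 ± 0.057 without replicate 3. Dusp7, the other cytoplasmic ERK phosphatase, was at 12.6, 11.6 and 13.9 RPKM in shNC and at 15.9, 17.2 and 16.0 RPKM in shM5 cells. It was the 1 member whose shM5 libraries were all above the shNC libraries, with a log2 fold change of 0.37 ± 0.0962 (limma adjusted p = 0.192) and of 0.43 ± 0.0642 without replicate 3. Among all genes, 15.7% were higher and 11.1% lower in shM5 cells without overlap, and of the members Dusp7 was higher and Dusp4 lower. The summed level of Dusp6 and Dusp7 was 35.1, 35.1 and 57.7 RPKM in shNC and 56.6, 57.3 and 60.3 RPKM in shM5 libraries.

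The phosphatases of JNK and p38 split. Dusp10 was at 2.68, 2.78 and 5.33 RPKM in TM4 shNC cells and at 4.86, 5.26 and 5.2 RPKM in shM5 cells, with log2 fold changes of 0.56 ± 0.265 and, without shNC replicate 3, 0.88 ± 0.0886. Dusp8 was at 7.57, 7.01 and 4.78 RPKM in shNC and at 4.59, 5.17 and 4.54 RPKM in shM5 cells, with log2 fold changes of -0.41 ± 0.186 and -0.60 ± 0.0898. Dusp16 was at 20.99, 22.5 and 18.2 RPKM in shNC and at 18.5, 19.4 and 18.4 RPKM in shM5 cells, with log2 fold changes of -0.12 ± 0.0999 and -0.21 ± 0.0554. For all 3 genes shNC replicate 3 lay among or next to the shM5 libraries and away from the other shNC libraries. Dusp14 was at 19.8 to 22.8 RPKM in shNC and at 22.7 to 23.8 RPKM in shM5 cells, and it was not called in either fit.

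**Figure D3:**
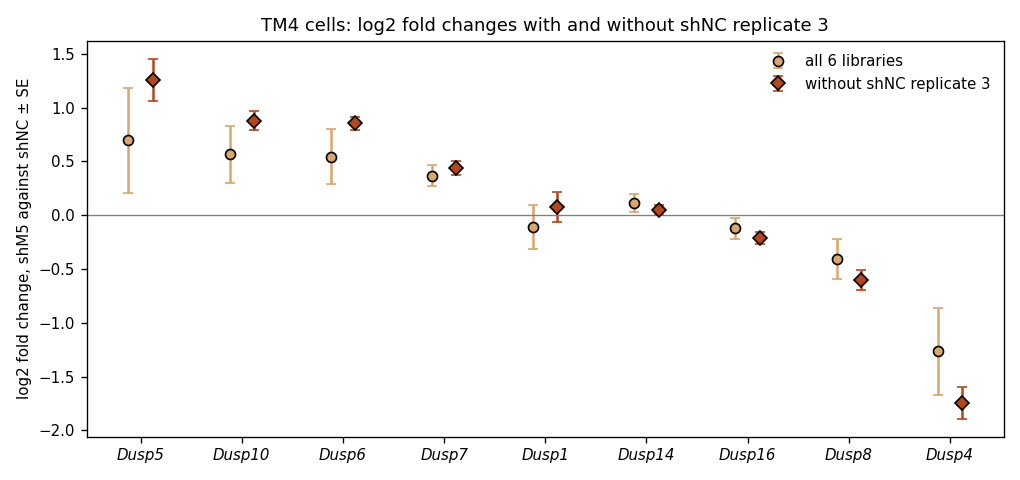
Log2 fold change ± SE of shM5 against shNC in TM4 cells (vertical axis) for the 9 phosphatases tested, with all 6 libraries (circles) and without shNC replicate 3 (diamonds). Dusp5, Dusp10, Dusp6 and Dusp7 lie above 0 and Dusp16, Dusp8 and Dusp4 below 0 in both fits, and Dusp4 is lowest at -1.26 and -1.74.

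Stress genes moved with these TM4 libraries. The summed level of 12 stress markers, targets of the amino acid and unfolded protein responses, was 2632 and 2623 RPKM in shNC replicates 1 and 2, 1278 RPKM in shNC replicate 3 and 1185 to 1229 RPKM in shM5 libraries. Without shNC replicate 3, all 12 were called lower in shM5 cells and none higher. With all 6 libraries, limma called 0 of the 12, and 11 had an unadjusted p below 0.05. Chac1, a glutathione-degrading enzyme of the stress response, was at 176, 162 and 17.9 RPKM in shNC and at 13.1, 13.5 and 10.9 RPKM in shM5 cells. None of the 12 markers was at 0 in all libraries. In C18-4 cells Chac1 was at 35.0, 37.7 and 107 RPKM in shNC and at 35.7, 36.2 and 96.1 RPKM in shM5 cells, so there replicate 3 of both groups was high. Markers of some other cell types moved as well. Of 5 markers of peritubular myoid cells and fibroblasts tested in TM4 cells, limma called 0 with all libraries, with 4 at an unadjusted p below 0.05, and 4 higher and 0 lower in shM5 cells without shNC replicate 3. Acta2, the actin of smooth muscle, was at 66.4, 63.3 and 140 RPKM in TM4 shNC and at 144, 142 and 194 RPKM in shM5 cells. In C18-4 cells it was at 23.7, 19.8 and 15.9 RPKM in shNC and at 56.7, 61.8 and 34.6 RPKM in shM5 cells, and limma called it with the replicate block (adjusted p = 0.000608) but not without it (adjusted p = 0.0764). Of the 4 myoid and fibroblast markers tested in C18-4 cells, limma called 0 without the block, with 1 at an unadjusted p below 0.05. The summed level of all 6 myoid and fibroblast markers was 1323, 1312 and 1580 RPKM in TM4 shNC and 1401 to 1849 RPKM in TM4 shM5 libraries. It was 430 to 491 RPKM in C18-4 shNC and 502 to 592 RPKM in C18-4 shM5 libraries. The summed level of 12 Sertoli cell markers was 85.9, 84.3 and 47.7 RPKM in TM4 shNC and 44.7 to 47.3 RPKM in TM4 shM5 libraries. In C18-4 cells it was 76.6 to 78.4 RPKM in shNC and 82.05 to 88.4 RPKM in shM5 libraries. For other lists the sums overlapped between the TM4 groups. That of 11 spermatogonial markers was 17.6 to 18.9 RPKM in TM4 shNC and 15.0 to 18.4 RPKM in TM4 shM5 libraries. Those of Leydig cells and of macrophages and blood cells were at 1.66 RPKM or less in TM4 libraries. The part of the stress genes and of these markers in the phosphatase results was not tested.

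The effect of shM5 was compared between the lines as an interaction in a fit of all 12 libraries. Dusp16 was called, with a log2 difference of -0.99 ± 0.146 (TM4 effect minus C18-4 effect, limma adjusted p = 0.0468), in a fit where 0.068% of 11773 genes had a higher and 0.034% a lower effect in TM4 cells. The log2 effect was 0.86 in C18-4 cells and -0.12 in TM4 cells. The call was lost with the replicate block and in 10 of the 12 fits that left out a library. The block fit called 2 of all 11773 genes, and each of those 10 fits called 0 to 4 genes. The Dusp16 call was kept without C18-4 shNC replicate 3, where 31 of all 11743 genes were called. It was also kept without TM4 shNC replicate 3, where 4477 of all 11793 were called. Over the 20 alternatives for Dusp16 the difference ran from -1.08 to -0.92, with adjusted p from 0.000161 to 0.17. Dusp4 (-1.61 ± 0.439) and Dusp8 (-1.03 ± 0.264) had log2 differences of the same sign that did not pass the test (adjusted p = 0.164 and 0.143). Without TM4 shNC replicate 3, 6 members were called, where 21.5% of all genes had a higher and 16.4% a lower effect. Dusp5 (1.0 ± 0.25), Dusp10 (0.73 ± 0.182) and Dusp7 (0.55 ± 0.139) then had the higher effect in TM4 cells. Dusp4 (-2.09 ± 0.176), Dusp8 (-1.23 ± 0.21) and Dusp16 (-1.07 ± 0.124) had the lower. That fit kept TM4 shM5 replicate 3, the highest TM4 shM5 library for Dusp5. Dusp6 was not called in either fit, and its log2 difference was -0.08 ± 0.289 with all libraries and 0.22 ± 0.123 without TM4 shNC replicate 3.

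Between the lines, Dusp7 and Dusp14 had the largest log2 differences in control cells among the 9 members tested. Dusp2 did not reach the minimum mean in this fit, with 0.53 to 0.69 RPKM in C18-4 shNC cells and a listing at 0 in TM4 shNC cells, and it was called lower in TM4 cells when no filter was used. Dusp7 was at 3.06 to 3.5 RPKM in C18-4 shNC and at 11.6 to 13.9 RPKM in TM4 shNC cells, a log2 difference (TM4 minus C18-4) of 1.89 ± 0.108, or 3.72-fold (limma adjusted p = 2.31e-08). Dusp14 was at 59.05 to 78.7 RPKM in C18-4 and at 19.8 to 22.8 RPKM in TM4 shNC cells, a log2 difference of -1.62 ± 0.11 (adjusted p = 1.2e-07). Dusp16 (1.11 ± 0.103) and Dusp6 (1.03 ± 0.204) were also higher in TM4 shNC cells, and Dusp10 (-1.28 ± 0.226) and Dusp5 (-0.97 ± 0.376) lower. The 6 called members compare with 25.6% of all genes called higher and 40% called lower in TM4 cells. The call of Dusp5 held in 6 of 14 alternatives. It was lost with library medians set equal, with quantile normalization, without a filter on low values, and when shNC replicate 1 or 2 of TM4 or replicate 1, 2 or 3 of C18-4 was left out. Dusp1, Dusp4 and Dusp8 did not pass the test in control cells. Leaving out TM4 shNC replicate 3 gave 8 called members, with Dusp1 lower and Dusp8 higher in TM4 cells besides the other 6. That fit called 3474 of all 11793 genes higher and 5198 lower. It turned the sign of the Dusp4 difference from -0.43 ± 0.311 to 0.05 ± 0.131. The difference of Dusp5 was then -1.53 ± 0.187, that of Dusp6 0.72 ± 0.092 and that of Dusp10 -1.59 ± 0.135. Those of Dusp7 (1.83 ± 0.103), Dusp14 (-1.55 ± 0.111) and Dusp16 (1.2 ± 0.0924) moved less. Groups did not overlap for Dusp6, Dusp7 and Dusp16, higher in TM4 cells, and for Dusp10 and Dusp14, lower, where 24.4% of all genes were higher and 39.1% lower without overlap. The median log2 difference of all genes was -0.15 and the 6 called members lay beyond it, 3 above 0 and 3 below that median.

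In shM5 cells the comparison of the lines gave 7 called members. It came from the same fit of 12 libraries as that in control cells, so both share the estimate of the spread. Dusp6 (0.95 ± 0.204) and Dusp7 (2.38 ± 0.108) were higher in TM4 cells. Dusp1 (-1.07 ± 0.222), Dusp4 (-2.04 ± 0.311), Dusp8 (-0.76 ± 0.186), Dusp10 (-0.87 ± 0.226) and Dusp14 (-1.77 ± 0.11) were lower. Among all genes, 24.2% were called higher and 37% lower, and the median log2 difference was -0.12. Dusp4 was at 17.5 to 18.5 RPKM in C18-4 and at 3.65 to 5.38 RPKM in TM4 shM5 cells, so the groups were far apart. Dusp16, at 16.8 to 17.8 RPKM in C18-4 and 18.4 to 19.4 RPKM in TM4 shM5 cells, was not called (log2 difference 0.13 ± 0.103, limma adjusted p = 0.316), although its groups did not overlap. Counted by overlap, 3 members were higher and 5 lower without overlap, where 31.2% of all genes were higher and 45.3% lower. The directions given for called members held with library medians set equal and with quantile normalization.

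As shares of the summed level of the 10 genes, Dusp14 made up 39.3% to 41.8% in C18-4 shNC libraries and 13.2% to 18.1% in TM4 shNC libraries. The cytoplasmic ERK phosphatases Dusp6 and Dusp7 made up 10.2% to 11.1% and 27.8% to 38.3%. In TM4 shNC cells the lowest share of Dusp14, the highest share of Dusp6 and Dusp7 and the highest sum were all those of replicate 3. In shM5 libraries that share was 11.2% to 11.9% in C18-4 cells and 39.4% to 41.1% in TM4 cells. The summed level itself was 150 to 189 RPKM in C18-4 shNC, 206 to 222 RPKM in C18-4 shM5, 125 to 150 RPKM in TM4 shNC and 138 to 153 RPKM in TM4 shM5 libraries. Without Dusp14 the sum was 88.6 to 110 RPKM in C18-4 shNC and 130 to 134 RPKM in C18-4 shM5 libraries, so the 2 groups did not overlap in C18-4 cells with or without this gene.

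**Figure D4:**
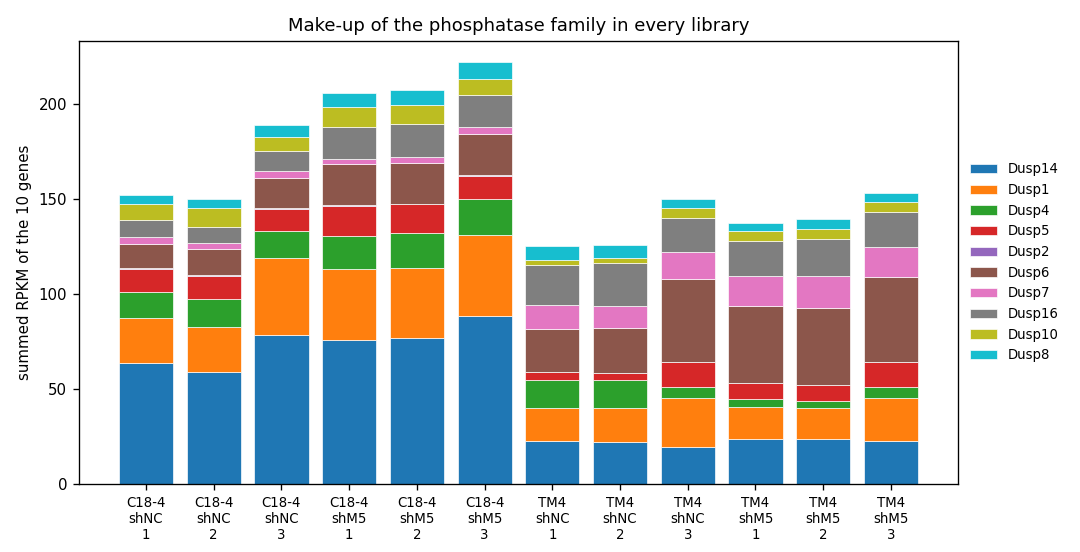
Summed RPKM of the 10 phosphatase genes in each library (bar height, vertical axis), split by gene, with the 12 libraries on the horizontal axis. Dusp14 is the largest part in C18-4 libraries (37.0% to 41.8%), and Dusp6 is the largest part in TM4 shM5 libraries (28.7% to 29.6%).

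Dusp9, a cytoplasmic ERK phosphatase that was not on the list, was at 2.46 to 4.5 RPKM in C18-4 and at 7.26 to 12.04 RPKM in TM4 libraries. It was higher in TM4 shNC cells (log2 difference 1.29 ± 0.232, limma adjusted p = 0.000463, and 1.07 ± 0.219 without TM4 shNC replicate 3), as were Dusp6 and Dusp7. It had log2 fold changes with shM5 of -0.07 ± 0.236 in C18-4 and 0.00 ± 0.195 in TM4 cells, and without TM4 shNC replicate 3 the latter was 0.21 ± 0.0916. Of the other dual-specificity phosphatases, 14 were tested in C18-4 and 12 in TM4 cells, and 0 were called by limma with shM5 in either line, with 0 and 3 at an unadjusted p below 0.05. With the replicate block 0 were called in C18-4 cells. Without shNC replicate 3, 5 were higher and 3 lower in TM4 cells, in the fit that called 36.5% of all genes higher and 30.9% lower. Among them Dusp3, which acts on ERK and JNK, was at 26.1, 27.0 and 16.6 RPKM in TM4 shNC and at 14.7, 15.0 and 16.5 RPKM in shM5 cells. Dusp11, an RNA phosphatase, was at 38.5, 39.9 and 29.4 RPKM in shNC and at 29.2, 27.8 and 26.5 RPKM in shM5 cells. Both had lower shM5 than shNC libraries without overlap.

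The cascades that these phosphatases act on were described from lists of their genes. Of all 11611 genes in C18-4 cells 1425 had an unadjusted p below 0.05, and with the replicate block 3446 did. Of 26 genes of the ERK cascade tested in C18-4 cells 0 were called, with 2 at an unadjusted p below 0.05, and with the replicate block 2 were higher and 1 lower. Rps6ka3, an ERK-activated kinase, was at 18.3 to 22.0 RPKM in shNC and at 22.5 to 22.6 RPKM in shM5 cells. Of 23 genes of the JNK and p38 cascade 0 were called, with 5 at an unadjusted p below 0.05, and 2 were higher and 0 lower with the block. Map3k5, an upstream kinase of JNK and p38, was at 0.95 to 1.05 RPKM in shNC and at 0.49 to 0.67 RPKM in shM5 cells. Mapkapk3, a p38 target kinase, was at 0.38 to 0.71 RPKM in shNC and at 0.74 to 1.07 RPKM in shM5 cells. The other feedback inhibitors of ERK signalling gave 0 calls among 13 genes, with 4 at an unadjusted p below 0.05, and 2 were higher and 1 lower with the block. Of these 13 genes 11 had a log2 fold change above 0, with a median of 0.24. Spry1, a Sprouty inhibitor of receptor signalling to ERK, was at 5.08, 4.84 and 7.26 RPKM in shNC and at 8.0, 8.47 and 9.63 RPKM in shM5 cells (log2 fold change 0.61, limma adjusted p = 0.21), and it was called higher with the block. Sulf2, a sulfatase that trims heparan sulfate, was at 18.1 to 19.9 RPKM in shNC and at 13.9 to 14.8 RPKM in shM5 cells, and it was called lower with the block. Of 26 MAPK-responsive transcripts 0 were called, with 4 at an unadjusted p below 0.05, and 3 were higher and 5 lower with the block. Hbegf, a growth factor of the epidermal growth factor family, was at 8.76 to 9.06 RPKM in shNC and at 11.5 to 12.5 RPKM in shM5 cells. Junb, a subunit of the AP-1 factor, was at 41.2, 42.3 and 53.1 RPKM in shNC and at 31.4, 30.1 and 38.6 RPKM in shM5 cells.

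In TM4 cells limma called 0 genes of these lists with all libraries, and the counts at an unadjusted p below 0.05 were 7 of 26 for the ERK cascade, 6 of 23 for JNK and p38, 3 of 11 for the feedback inhibitors and 14 of 30 for the MAPK-responsive transcripts, where 2866 of all 11016 genes had such a p. Without shNC replicate 3 the ERK cascade had 10 higher and 11 lower genes, JNK and p38 15 and 2, the feedback inhibitors 2 and 4, and the responsive transcripts 11 and 11. Among all genes this fit called 36.5% higher and 30.9% lower. Rps6ka2 and Rps6ka1, both ERK-activated kinases, had opposite directions. Rps6ka2 was at 34.1, 34.3 and 9.94 RPKM in shNC and at 7.82 to 8.45 RPKM in shM5 cells. Rps6ka1 was at 2.78, 2.85 and 6.39 RPKM in shNC and at 6.4 to 7.48 RPKM in shM5 cells. Map3k11, an upstream kinase of JNK, was at 4.34, 4.45 and 8.7 RPKM in shNC and at 8.85 to 9.35 RPKM in shM5 cells. Atf3, a stress-induced transcription factor, was at 72.4, 71.0 and 7.76 RPKM in shNC and at 4.73 to 5.59 RPKM in shM5 cells. Klf4, a transcription factor of the immediate early kind, was at 10.1, 10.9 and 2.34 RPKM in shNC and at 1.19 to 1.79 RPKM in shM5 cells. Spred2, an inhibitor of RAF activation, was at 13.5, 13.7 and 20.2 RPKM in shNC and at 20.6 to 22.4 RPKM in shM5 cells. In each of these genes shNC replicate 3 lay near the shM5 libraries, as for Dusp4, Dusp6, Dusp8, Dusp10 and Dusp16. For Dusp7 and Dusp14 it did not. Between control cells of the lines, 21 of 29 MAPK-responsive transcripts tested were higher and 2 lower in TM4 cells, with a median log2 difference of 1.21 against -0.15 over all genes, and 23 were higher and 2 lower without TM4 shNC replicate 3. Other phosphatases that act on MAP kinases, outside this enzyme class, gave 0 calls with shM5 among 6 genes in C18-4 and 7 in TM4 cells, with 0 at an unadjusted p below 0.05 in each. Without TM4 shNC replicate 3 some of them were called in TM4 cells, in both directions. That fit called 36.5% of all genes higher and 30.9% lower.

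The gene most like each phosphatase was sought by the smallest root mean square difference of centred log2 values over the 12 libraries, among the 11148 genes that averaged 1 RPKM or more. Dusp10 had the closest companion, Dpp3, at a difference of 0.0778. Dpp3, a dipeptidyl peptidase, was at 43.0 to 61.2 RPKM in C18-4 shNC, 54.3 to 65.98 RPKM in C18-4 shM5, 17.7 to 31.2 RPKM in TM4 shNC and 30.3 to 33.0 RPKM in TM4 shM5 libraries. For Dusp14 it was Cd2ap (0.101), for Dusp7 Tacc1 (0.11), for Dusp16 D8Ertd738e (0.142), for Dusp8 Snrk (0.142), for Dusp6 Fam3c (0.146), for Dusp4 Cdyl (0.149), for Dusp5 Rtkn2 (0.185) and for Dusp1 Ildr2 (0.203). Within the family Dusp5 and Dusp10 were nearest to each other, at a difference of 0.3. These differences are a description over libraries that share lines and controls.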

How the data were processed

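RNA was sequenced from C18-4 and TM4 cells, 3 libraries for each of shNC and shM5, 12 in all, and groups and replicate numbers came from the sample labels. The authors enriched mRNA with oligo(dT), aligned reads to reference genes with SOAPaligner and deposited RPKM values, normalized by them for gene length and mapped reads, in a table of 17995 genes, 772 of them at 0 in all libraries. The genome build and annotation are not given in the sources used here. Read numbers were not given. The relative value of 1 read, taken from the steps between low values, was 0.962 to 1.035 over the libraries, so depth was similar, but the sampling error of a value is unknown. The paper's methods name a read-based test, at thresholds of 0.001 for the adjusted p and 1 for the size of the log2 ratio. Such a test does not suit RPKM, and that threshold was counted beside the one used here.

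log2(RPKM + 0.1) was fitted with limma 3.58.1 (R 4.3.3, eBayes with trend) for genes that averaged 0.5 RPKM or more over the libraries of a fit, and p-values were adjusted by Benjamini-Hochberg over all genes tested. A call is an adjusted p below 0.05. The pseudocount makes fold changes of low genes too small. Each line was fitted alone, and the lines were compared in a fit of all 12 libraries. The members, gene lists, tests and alternatives were chosen with earlier results of these data known. Named genes are all members and, from each list, line and direction, up to 3 called genes or, with none called, up to 2 of the largest change whose groups did not overlap. A gene that this rule names is not reported here. Fos, Egr1, Acta2 and Dusp9 were added after their values were seen. In C18-4 cells deviations from the group means of same-numbered libraries correlated at 0.439, 0.409 and 0.631 across genes. Libraries numbered 1 and 2 correlated at 0.341 and 0.345 across the groups, and number 3 correlated with them at -0.514 to -0.467, so the block mainly separates number 3. This pairing comes from the data and not from the labels, and blocked values are given beside the results. In TM4 cells they were 0.073, 0.049 and 0.127. Simulated data took the mean levels of each line and, for both lines, the spread within the C18-4 groups. Changes were set on the log2 scale. With C18-4 levels (11567 genes) the fit recovered 63.3% of genes changed by 0.7 and 88.7% of those changed by 1.5. With TM4 levels (10958 genes) it recovered 54.6% and 86.0%. The spread of the TM4 libraries, in which shNC replicate 3 stood apart, was not simulated. What the fit can recover in TM4 cells is therefore not known.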

Additional observations from a re-analysis of the deposited data

Results flagged for a closer look

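The effect of shM5 on Dusp16 differed between the lines by an interaction test in limma, with a log2 difference of -0.99 (TM4 effect minus C18-4 effect, adjusted p = 0.0468 over all genes, n = 3 libraries a group). Dusp16 was higher in 3 of 3 shM5 libraries than in any shNC library of C18-4 cells, and its groups overlapped in TM4 cells. The adjusted p was between 0.000161 and 0.17 over the alternatives.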

How the results depend on the processing

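Of the 716 alternative log2 fold changes of single phosphatases, 646 kept their direction and their side of the threshold, 42 passed it newly, 25 no longer passed it and 3 turned their sign, all without TM4 shNC replicate 3. These were Dusp1 with shM5 in TM4 cells (-0.267 to 0.076 over the fits that left out a library), Dusp4 between control cells of the lines (-0.688 to 0.046) and the interaction of Dusp6 (-0.253 to 0.224). The members called in C18-4 cells numbered 1, and 0 at the study's threshold, 0 without a filter on low values, 2 with library medians set equal, 2 with quantile normalization and 6 with the replicate block, for which all genes called went from 68 to 1386. With 1 library left out they numbered 0 to 4, with 4 without shNC replicate 3, where 237 of all 11579 genes were called. Without a filter on low values 4 of all 16230 genes were called. In TM4 cells 0 to 7 members were called with 1 library left out. The replicate block, where numbers are only shared, called 0 members there. With 2 libraries a group and no number 3, an alternative chosen after seeing the data, 7 members were called in C18-4 cells and 7 in TM4 cells. Those fits called 3029 of all 11549 genes in C18-4 cells and 8016 of all 11030 genes in TM4 cells. With the block the comparisons of the lines called Dusp1 in control cells and Dusp5 in shM5 cells besides the main calls, but libraries of different lines share no block there. Between shM5 cells of the lines 3 of the 7 called members passed the study's threshold, as did 2830 of all 11773 genes. The interaction called 1 member, 0 at the study's threshold, 0 with the replicate block and 0 to 6 with 1 library left out. Among all 11773 genes it called 12, and 2 with the block. The cause was not tested, except that fits with fewer libraries or a block differ in their degrees of freedom. Quantile normalization moved the genes called higher and lower in TM4 control cells from 3014 and 4711 to 3980 and 3844, and in shM5 cells from 2845 and 4353 to 3729 and 3618. The other 55 alternative counts of called members stayed within 1.5 times the main count. RPKM keeps no read numbers, so what depth limits could not be given.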
